A study of Mus musculus with 6 samples.

Results

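The myogenic regulatory factors are a family of basic helix-loop-helix transcription factors encoded in the mouse by Myod1, Myog, Myf5 and Myf6. The genes were taken by name, and all 4 were present among the 21666 genes of the count matrix and among the 15518 genes that passed the filter on low counts and were tested. The matrix holds 3 libraries from lncMREF knockout (KO) mice and 3 from wild-type (WT) mice, made from total RNA of cultured satellite cells of skeletal muscle after 2 days of differentiation. Satellite cells are the resident progenitors of muscle fibres, and lncMREF is a long noncoding RNA that the series title ties to myogenic differentiation and to a complex of Smarca5 and p300. The sources used here do not state how the knockout allele was made, the strain, the age and sex of the mice, or whether replicates were separate animals. The p-values therefore measure variation among libraries that may be only technical. The same sources name neither an identifier nor a position of lncMREF, so these counts give no check of the deletion. A second set of counts, a table for each library, disagrees with the matrix for most genes and holds almost no reads of the factors; all values are from the matrix unless the per-library tables are named, and the cause of the disagreement was not tested.

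Each of these factors binds DNA as a dimer with an E protein such as Tcf3, Tcf4 or Tcf12, at the E-box, a short palindromic motif in the enhancers and promoters of muscle genes. In muscle progenitors Myf5 and Myod1 act first and set the lineage, Myog then drives myoblasts into differentiation, and Myf6, also called MRF4, is the member best known from maturing and adult fibres. Id proteins hold back the family by taking up the E proteins, and MEF2 factors work beside it on the same muscle genes.

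The factors come from a common ancestral gene and remain most alike in the part that encodes the helix-loop-helix domain, which matters here because reads from near-identical stretches could be counted for the wrong member. The gap-free stretch of 60 coding bases most like Myod1 in the other members lay in exon 1 of each gene. It is shown for all 4, read on the coding strand from the GENCODE M21 transcripts, with capitals for the 44 positions that are identical in all of them.
Myod1: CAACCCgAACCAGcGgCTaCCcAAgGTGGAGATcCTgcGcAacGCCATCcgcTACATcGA
Myog: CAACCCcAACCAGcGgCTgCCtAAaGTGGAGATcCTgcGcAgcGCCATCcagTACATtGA
Myf5: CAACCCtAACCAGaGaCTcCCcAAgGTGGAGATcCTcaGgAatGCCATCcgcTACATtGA
Myf6: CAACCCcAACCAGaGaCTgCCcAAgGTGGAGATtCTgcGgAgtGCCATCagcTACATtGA
These stretches span chr7:46377086-46377145 (+) for Myod1, chr1:134290385-134290444 (+) for Myog, chr10:107485537-107485596 (-) for Myf5 and chr10:107494280-107494339 (-) for Myf6 in mm10. Relative to Myod1, 52 of the 60 bases were the same in Myog, 51 in Myf5 and 50 in Myf6. Over the whole transcripts the longest identical run between any pair was 26 bases, between Myod1 and Myf5, and no pair shared a run of 50 bases.

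Each factor is a compact gene with a single annotated transcript of 3 exons, and none overlaps another annotated gene on either strand. Myod1 (ENSMUSG00000009471) lies on chromosome 7 from 46376474 to 46379099 and has 1861 exonic bases. Myog (ENSMUSG00000026459) lies on chromosome 1 from 134289989 to 134292548 and has 1495. Myf5 (ENSMUSG00000000435) and Myf6 (ENSMUSG00000035923) are neighbours on the minus strand of chromosome 10, at 107482908 to 107486134 and 107492853 to 107494737, with 2083 and 1263 exonic bases and 6718 bases between them.

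In KO cells Myod1, Myog and Myf6 fell, and Myf5 was not called. Myod1 was 3.23-fold lower, Myog 2.4-fold lower and Myf6 2.4-fold lower in KO than in WT libraries. Myod1 kept a smaller part of its WT level than Myog, so that the balance between the 2 abundant factors also differed between the genotypes. Of all 15518 tested genes, 66.7% were called at an adjusted p under 0.05 in edgeR's quasi-likelihood test and 33% were called lower in KO, so that a call by itself does not set a gene apart in this comparison. The changes of Myod1, Myog and Myf6 were larger than those of most genes, and that of Myf5 was not: 92.3% of tested genes changed by less than Myod1 in absolute log2 terms, 86.9% by less than Myog, 86.8% by less than Myf6 and 21.9% by less than Myf5.

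Myod1 had 97.8, 91.3 and 91.4 CPM (counts scaled to a common library size, with TMM factors) in KO replicates 1 to 3, against 310.7, 304.2 and 291.2 CPM in WT replicates 1 to 3. The KO libraries lay close together, and the highest of them was below every WT library. The log2 fold change was -1.69 (SE 0.05, 95% interval -1.78 to -1.60, adjusted p 3.87e-27 in edgeR's quasi-likelihood test). These values rest on 2159, 2292 and 1734 reads in KO and 6981, 5778 and 7803 reads in WT libraries.

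Myog, the most abundant member in every library, had 325, 302 and 309 CPM in KO replicates 1 to 3, against 787.3, 724 and 738 CPM in WT replicates 1 to 3. Again the groups did not overlap. The fold change was -1.26 on the log2 scale (SE 0.04, 95% interval -1.35 to -1.18, edgeR adjusted p 7.39e-24), from 7176, 7586 and 5864 reads in KO and 17689, 13752 and 19776 reads in WT libraries. The intervals of Myod1 and Myog were apart from each other.

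Myf6 had 4.44, 2.31 and 2.16 CPM in KO replicates 1 to 3, against 7.48, 6.63 and 7.28 CPM in WT replicates 1 to 3. KO replicate 1 stood above the other KO libraries, and all 3 stayed below the lowest WT library. Its exact Poisson interval (95%, counting error only) ran from 3.6 to 5.41 CPM, above the intervals of KO replicate 2 (1.75 to 2.99) and KO replicate 3 (1.55 to 2.93), so that these libraries differed by more than counting error. The log2 fold change was -1.26 (SE 0.20, 95% interval -1.68 to -0.84, edgeR adjusted p 1.37e-05), and without KO replicate 1 it was -1.67 (adjusted p 5.73e-09). The reads behind it were few, 98, 58 and 41 in KO and 168, 126 and 195 in WT libraries.

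Myf5, by contrast, had nearly the same level in the 3 KO libraries, 5.93, 5.93 and 5.74 CPM in replicates 1 to 3, against 5.25, 7.48 and 6.87 CPM in WT replicates 1 to 3. The WT libraries spread around the KO values, with WT replicate 1 below all of them. The log2 fold change was -0.15 (SE 0.14, edgeR adjusted p 0.346). Its 95% interval of -0.43 to 0.13 corresponds to KO levels between 0.743 and 1.09 times the WT level. With library size as the only scaling the value was 0.0215 (adjusted p 0.897), the opposite sign; that scaling moves the median of all genes from 0.021 to 0.192 and the share of calls that are higher in KO from 50.5% to 66.1%. KO and WT CPM did not overlap for Myod1, Myog and Myf6, as for 69.4% of all tested genes, whereas they overlapped for Myf5.

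**Figure D1:**
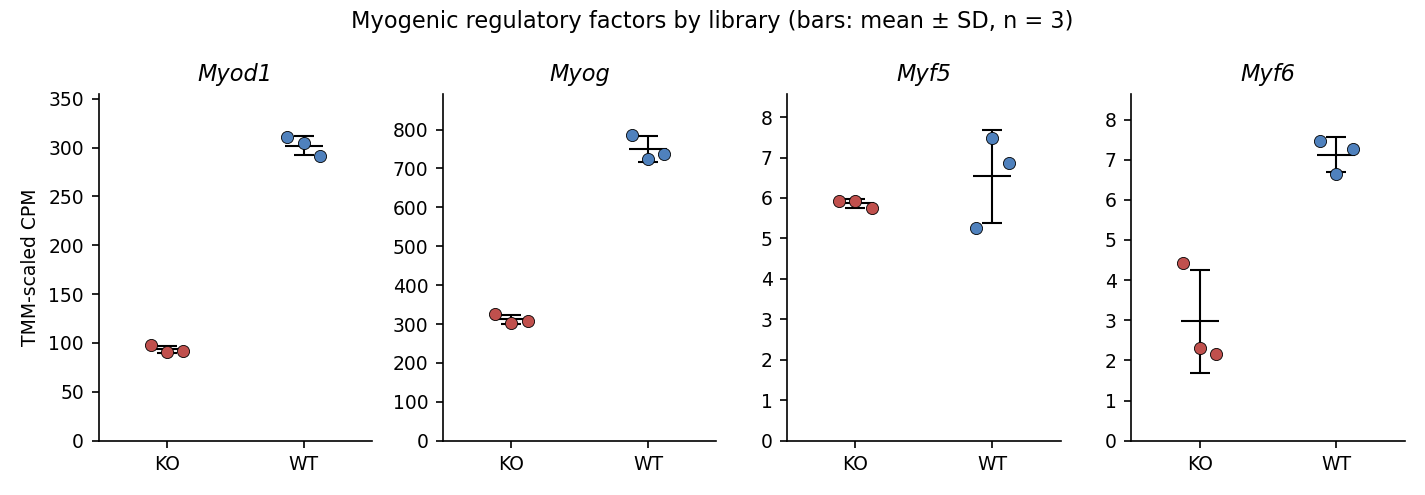
TMM-scaled CPM (y axis, from 0, a scale for each gene) of Myod1, Myog, Myf5 and Myf6 in the 3 KO libraries (red) and the 3 WT libraries (blue), 1 point per library, with mean and SD. KO and WT points are apart for Myod1, Myog and Myf6, where KO replicate 1 sits at 4.44 CPM above the other KO libraries, and mix for Myf5.

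Levels were compared between the factors per length, as RPKM (CPM divided by the exonic length in kilobases). Myog averaged 208.7 ± 7.88 RPKM in KO and 501.5 ± 22.2 RPKM in WT libraries (SD, n = 3 each, as for all RPKM values here), Myod1 50.2 ± 2.01 and 162.3 ± 5.34, Myf5 2.82 ± 0.05 and 3.14 ± 0.55, and Myf6 2.35 ± 1.01 and 5.65 ± 0.35. Among 13569 tested protein-coding genes ordered by mean RPKM, Myog stood at place 146 in KO and 53 in WT, and Myod1 at place 820 in KO and 216 in WT. Myf5 stood at place 8788 in KO and 8501 in WT, and Myf6 at place 9279 in KO and 6623 in WT.

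In every KO and every WT library Myog was above Myod1, and Myod1 was far above Myf5 and Myf6. In KO libraries the 2 scarce members did not differ beyond their spread: Myf5 had 2.85, 2.85 and 2.76 RPKM in replicates 1 to 3 and Myf6 had 3.51, 1.83 and 1.71. In WT libraries Myf6 was above Myf5 in each replicate, with 5.92, 5.25 and 5.76 RPKM for Myf6 and 2.52, 3.59 and 3.3 for Myf5.

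Summed over the 4 factors, the family held 276.3, 255.8 and 260.3 RPKM in KO replicates 1 to 3, against 702, 656.6 and 659.2 RPKM in WT replicates 1 to 3. The WT sum was 2.55 times that of KO (exact permutation test, two-sided, p = 0.1, the smallest value that 3 libraries against 3 can give). Myog made up 71.7% of the difference between the genotype means and Myod1 27.4%, while Myf6 made up 0.806% and Myf5 0.0777%.

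The share of the family sum held by each factor needs no scaling between libraries. Myod1 held 19, 19.2 and 18.9% in KO replicates 1 to 3, against 23.8, 24.9 and 23.7% in WT replicates 1 to 3. Myog held 78.7, 79 and 79.4% in KO, against 75, 73.8 and 74.9% in WT. The mean share of Myod1 was thus 5.12 percentage points below that in WT (difference -5.12) and the mean share of Myog 4.48 points above it, and neither pair of groups overlapped.

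The scarce members each held between 0.359 and 1.27% of the family sum. Myf5 held 1.03, 1.11 and 1.06% in KO replicates 1 to 3, against 0.359, 0.547 and 0.5% in WT replicates 1 to 3, a higher share in all 3 KO libraries. Myf6 held 1.27, 0.715 and 0.657% in KO, against 0.843, 0.8 and 0.874% in WT, so that the groups overlapped and KO replicate 1 lay on the other side of the WT values from KO replicates 2 and 3. The exact permutation test (two-sided) gave p = 0.1 for Myod1, Myog and Myf5, adjusted to 0.133 over the 4 factors, and p = 1 for Myf6. With 3 libraries a group this test cannot go below 0.1.

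**Figure D2:**
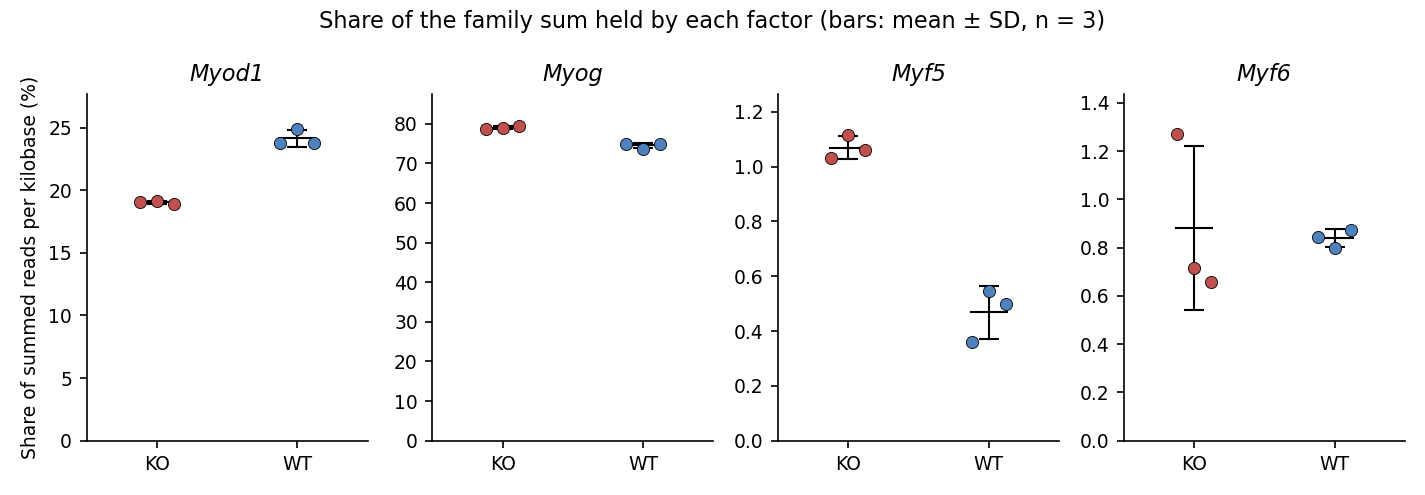
Share of the summed reads per kilobase of the 4 factors (y axis in percent, from 0, a scale for each factor) held by each factor in the 3 KO libraries (red) and the 3 WT libraries (blue), with mean and SD. KO shares are lower than WT shares for Myod1 (19 against 24.1% on average) and higher for Myog and Myf5, and Myf6 overlaps.

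Ratios within a library show which factors changed by different amounts. The log2 ratio of Myod1 over Myog averaged -2.06 ± 0.02 in KO and -1.63 ± 0.05 in WT libraries (SD, n = 3 each), a difference of -0.43. Per length there were thus 0.242, 0.243 and 0.238 Myod1 reads per Myog read in KO replicates 1 to 3, against 0.317, 0.338 and 0.317 in WT replicates 1 to 3. The KO values were all below the WT values, and both groups were tight.

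The largest shift was that of Myod1 over Myf5. This log2 ratio averaged 4.16 ± 0.05 in KO and 5.71 ± 0.30 in WT libraries (SD, n = 3 each), a difference of -1.55, and the ratio of Myog over Myf5 differed by -1.13. Myf5 over Myf6 averaged 0.34 ± 0.56 in KO and -0.86 ± 0.34 in WT libraries, a difference of 1.2 with no overlap. Myf6 showed no such separation from the abundant members: its groups overlapped against Myod1 (difference -0.35, exact permutation p = 0.4) and against Myog (difference 0.08, exact permutation p = 1). Over the 6 pairs, the exact two-sided permutation test gave p = 0.1, adjusted to 0.15, for the 4 pairs that did not overlap. The small differences that involve Myf6 turned with single KO libraries: Myog over Myf6 was 0.38 without KO replicate 1, -0.04 without KO replicate 2 and -0.10 without KO replicate 3, and the difference of the Myf6 share was -0.15 percentage points without KO replicate 1, in place of 0.042. Myod1 over Myf6 was -0.05 without KO replicate 1.

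**Figure D3:**
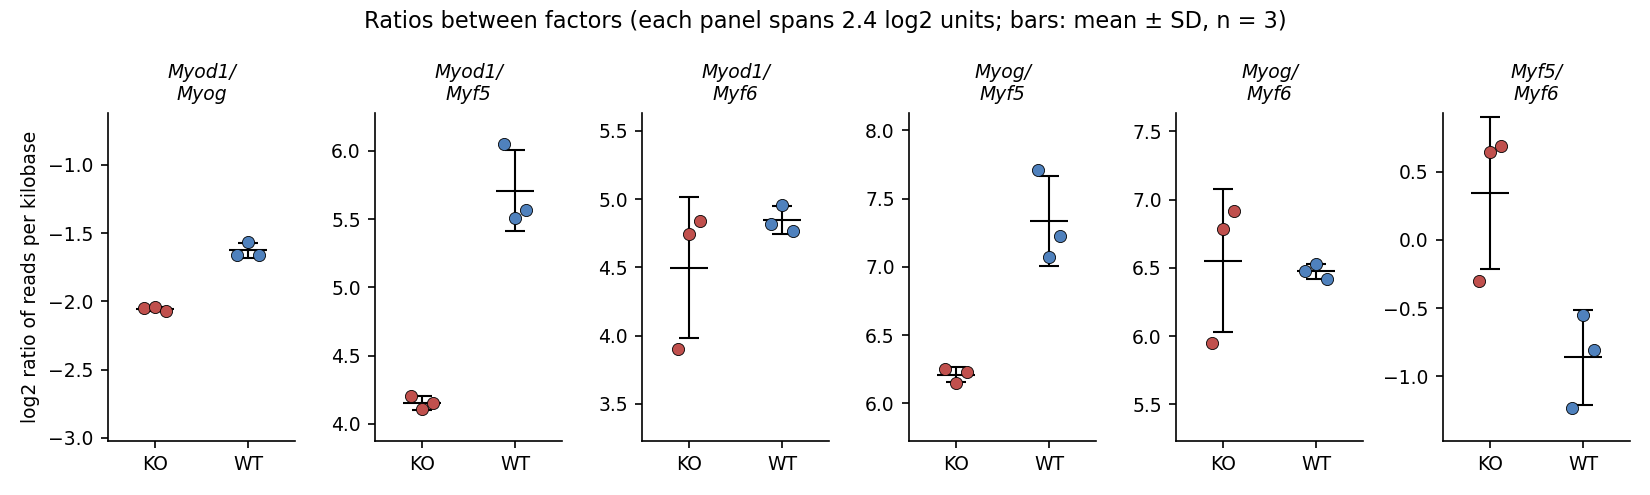
Log2 ratio of reads per kilobase (y axis, each panel spanning 2.4 log2 units) for the 6 pairs of factors in the 3 KO libraries (red) and the 3 WT libraries (blue), with mean and SD. KO and WT are apart for Myod1 over Myog, for both abundant factors over Myf5 and for Myf5 over Myf6, and overlap in the other pairs.

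RNA of marker genes for other cell types and states also differed between the same libraries, and its part in the changes of the factors was not tested. The 6 satellite cell and myoblast markers had 4 members lower and 1 higher in KO (median log2 fold change -1.80), and their summed level was 1320 to 1359 CPM in KO and 5568 to 5723 CPM in WT libraries. Desmin (Des), N-CAM (Ncam1), M-cadherin (Cdh15) and integrin alpha 7 (Itga7) were the ones that fell, Pax7 rose and Vcam1 was not called; Des, Cdh15 and Itga7 are also in the list of MRF targets. All 16 cell cycle markers rose (881.1 to 925.9 CPM summed in KO, 243.6 to 250.7 CPM in WT), whereas in the per-library tables only 6 could be tested, 2 of them lower and 0 higher. All 10 endothelial markers fell (83.2 to 88.6 CPM in KO, 336.5 to 342.9 in WT). All 10 macrophage markers rose (334.5 to 341.9 in KO, 105.2 to 114.2 in WT). Of 8 Schwann and glial markers 6 rose and 1 fell (940.2 to 954.1 in KO, 482.5 to 487.7 in WT). Single genes held much of these sums: Cdh5 averaged 173.2 CPM in WT, Lyz2 238.3 CPM in KO and Ngfr 518.9 CPM in KO. Of all tested genes 66.7% were called either way and 33% lower. In the per-library tables the endothelial markers had 2 lower and 1 higher of 3 tested, and the macrophage markers 0 called of 2. There the Schwann and glial markers had 3 higher of 3, and the satellite cell markers 0 lower and 2 higher of 4. Of 7 fibro-adipogenic markers 3 rose and 3 fell, and of 6 smooth muscle and pericyte markers 1 rose and 3 fell. No marker was at 0 in any library. Mitochondrial genes took 2.07 to 2.3% of counts in KO and 3.97 to 4.18% in WT libraries, and Xist was at 457.2 ± 35 CPM in KO and 153.9 ± 1.54 CPM in WT (SD, n = 3 each). Of 4 Y-linked genes, Ddx3y (-0.78), Uty (-0.50) and Eif2s3y (-0.42) fell and Kdm5d was not called, and all were detected in both genotypes. In such bulk cultures fewer cells that express a factor and less of its RNA per cell cannot be told apart.

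None of the 3 genes for the E proteins, the partners of the factors on DNA, was called lower in the matrix. Across all tested genes 33% were called lower and 66.7% either way, so this count does not set the E protein genes apart. In the per-library tables all 3 could be tested, with 1 called lower and 0 higher (median -0.04). Tcf3, which encodes E12 and E47, rose by 0.58 on the log2 scale (SE 0.05) to 105.4 ± 4.56 CPM in KO, against 70.5 ± 2.14 CPM in WT (SD, n = 3 each). Tcf12, which encodes HEB, rose by 0.17 (SE 0.05, edgeR adjusted p 0.00162). Tcf4, which encodes E2-2, was not called (-0.06, SE 0.04, edgeR adjusted p 0.201), and was called higher with library size as the only scaling (0.11, adjusted p 0.0315).

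The MEF2 genes, whose products work with the family on muscle genes, fell in all 3 tested cases. For comparison, 33% of all tested genes were called lower in KO. Mef2a averaged 128.3 ± 5.43 CPM in KO and 437.9 ± 25 CPM in WT, Mef2c 181.6 ± 7.54 and 592.8 ± 14.2, and Mef2d 182.9 ± 3.84 and 354.6 ± 3.42 (SD, n = 3 each). Their log2 fold changes were -1.77, -1.71 and -0.95. Mef2b, at under 1 CPM, did not pass the filter. In the per-library tables only 1 MEF2 gene could be tested, and it was called higher (1.1).

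The inhibitors were mixed. Of 16 genes whose products restrain the family, 7 rose, 3 fell and 6 were not called (median 0.18, against 0.021 over all tested genes). Of all tested genes 66.7% were called either way and 33% lower, so this number of calls does not set the list apart. Among the Id genes, Id4 rose by 1.03 to 8.95 ± 0.98 CPM in KO, against 4.37 ± 0.09 CPM in WT (SD, n = 3 each). Id1 fell by 0.62 and Id2 fell by 0.61, while Id3, the most abundant of the 4, had -0.09 (SE 0.07, edgeR adjusted p 0.257). Without KO replicate 3 Id3 was called lower (-0.17, edgeR adjusted p 0.0301).

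Among the other inhibitors, Twist1, a helix-loop-helix repressor of the muscle programme, rose by 0.58 and its relative Twist2 fell by 0.68. Musculin (Msc), which competes for E-boxes, rose by 1.01 from a low base, at 1.65 ± 0.36 CPM in KO and 0.816 ± 0.08 CPM in WT (SD, n = 3 each). Snai2, a zinc finger repressor that occupies E-boxes in myoblasts, rose by 0.66, and the Notch effectors Heyl and Hes1 rose by 0.34 and 0.33. Snai1 rose by 0.21, a call that was lost without KO replicate 1 (edgeR adjusted p 0.0506) and without WT replicate 3 (0.125). Mdfi, which binds the factors and keeps them out of the nucleus, was not called (0.16, edgeR adjusted p 0.231), nor were Bhlhe40, Bhlhe41, Zeb1 and Hey1. Hey1, another Notch effector, had 0.37 (edgeR adjusted p 0.0525) and was called higher under 6 alternatives, with adjusted p of 0.00595 to 0.0376. With library size as the only scaling 11 of the 16 were called higher and 3 lower.

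Genes that act upstream of the factors were lower more often than they were higher. Of 15 tested, 11 fell, 2 rose and 2 were not called (median -0.68), beside 33% of all tested genes called lower and 66.7% called either way. Lbx1, a homeobox gene of migrating limb muscle precursors, had 9.21 ± 1.30 CPM in KO and 41.4 ± 2.87 CPM in WT (SD, n = 3 each). It fell by 2.17 on the log2 scale. Six4, a homeodomain factor, fell by 0.89. The Eya genes, whose products are cofactors of such factors, did not move as a block, since Eya4 fell by 0.68 and Eya1, at 2.14 ± 0.27 CPM in KO and 4.55 ± 0.08 CPM in WT, also fell, whereas Eya2 rose by 1.57 (5.24 ± 0.52 CPM in KO and 1.72 ± 0.63 CPM in WT).

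Of the paired box genes that mark satellite cells and precede Myf5 and Myod1, Pax3 fell by 2.28 to 0.763 ± 0.52 CPM in KO, against 3.88 ± 0.35 CPM in WT, and Pax7 rose by 0.53 to 15.1 ± 0.75 CPM in KO, against 10.4 ± 0.78 CPM in WT (SD, n = 3 each). Pitx3 fell by 1.47, the serum response factor Srf fell by 0.43 and Foxo3 fell by 0.29. Nfix fell by 0.13, a call lost with library size as the only scaling, where it had the opposite sign (0.04, edgeR adjusted p 0.354). Dmrt2, which acts on Myf5 in the embryo, and Meox2 were not called.

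Of 19 chromatin cofactors of the family, 9 rose, 7 fell and 3 were not called (median 0.11), beside 66.7% of all tested genes called either way and 33% called lower. Coactivators were called in both directions. Smarcd3, the BAF60c subunit that associates with MyoD, fell by 1.04 to 21 ± 1.1 CPM in KO, against 43 ± 0.94 CPM in WT (SD, n = 3 each). The acetyltransferase Kat2b fell by 0.66 and the methyltransferases Setd7 and Prmt5 fell by 0.55 and 0.30. The BAF60a subunit Smarcd1 rose by 0.74, the methyltransferase Carm1 by 0.24, the acetyltransferase Crebbp by 0.22 and the remodelling ATPase Smarca4 by 0.11. The calls of Crebbp (edgeR adjusted p 0.0534) and Smarca4 (0.247) were lost without WT replicate 3. That of Smarca4 was also lost without KO replicate 1 (edgeR adjusted p 0.0909) and without WT replicate 1 (0.21). It did not hold either with median-of-ratios scaling (edgeR adjusted p 0.0519), with no low-count filter (0.0734) or with DESeq2 (0.0804). Among the repressive enzymes, the histone methyltransferases Suv39h1, Ezh2 and Ehmt2 rose by 1.06, 0.94 and 0.56 and the deacetylase Hdac1 by 0.29, while the deacetylase Sirt1 and the demethylase Kdm1a were not called.

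Of the complex named in the series title, Smarca5 had 92.7 ± 10.2 CPM in KO and 118.1 ± 1.52 CPM in WT (SD, n = 3 each), a log2 change of -0.35. Ep300, which encodes p300, had 96.6 ± 2.09 CPM in KO and 87.8 ± 7.68 CPM in WT, a change of 0.14 (edgeR adjusted p 0.0197). This call did not hold without KO replicate 1 (edgeR adjusted p 0.0798), without WT replicate 1 (0.103), without WT replicate 3 (0.309) and with DESeq2 (0.0728).

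All 35 genes of a list of MRF targets fell in KO, 32 of them by over 2-fold (median -1.87), beside 33% of all tested genes called lower. This did not hold in the per-library tables, where 11 of the targets could be tested, 4 of them lower and 1 higher (median -0.14). The list was chosen with earlier results of these data known, so its count of falls is not an independent test. The summed level of the list was 12550 to 13310 CPM in KO and 41540 to 42140 CPM in WT libraries. The targets with the smallest p were the acetylcholine receptor subunits Chrna1 (-2.53), Chrnd (-2.62) and Chrng (-2.44), the sarcomere chaperone adaptor Klhl41 (-2.71), desmin Des (-2.43), the neonatal myosin heavy chain Myh8 (-2.38), the fusion protein Mymk (-2.19) and muscle creatine kinase Ckm (-2.25). Chrna1 had 254.8 ± 0.88 CPM in KO and 1467 ± 18.4 CPM in WT (SD, n = 3 each).

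Set against its targets, Myod1 was near the middle: 18 of the 35 targets fell by more than Myod1 did. For Myog and for Myf6, 28 of the 35 fell by more than the factor. The smallest falls were those of the myosin light chains Mylpf (-0.66), Myl4 (-0.90) and Myl1 (-0.91). The cell cycle inhibitor Cdkn1a (-1.23) and the Notch ligand Dll1 (-1.31) fell by about as much as Myog. These 5 were named after their values were seen. The counting could split reads between close copies among the myosin genes.

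**Figure D4:**
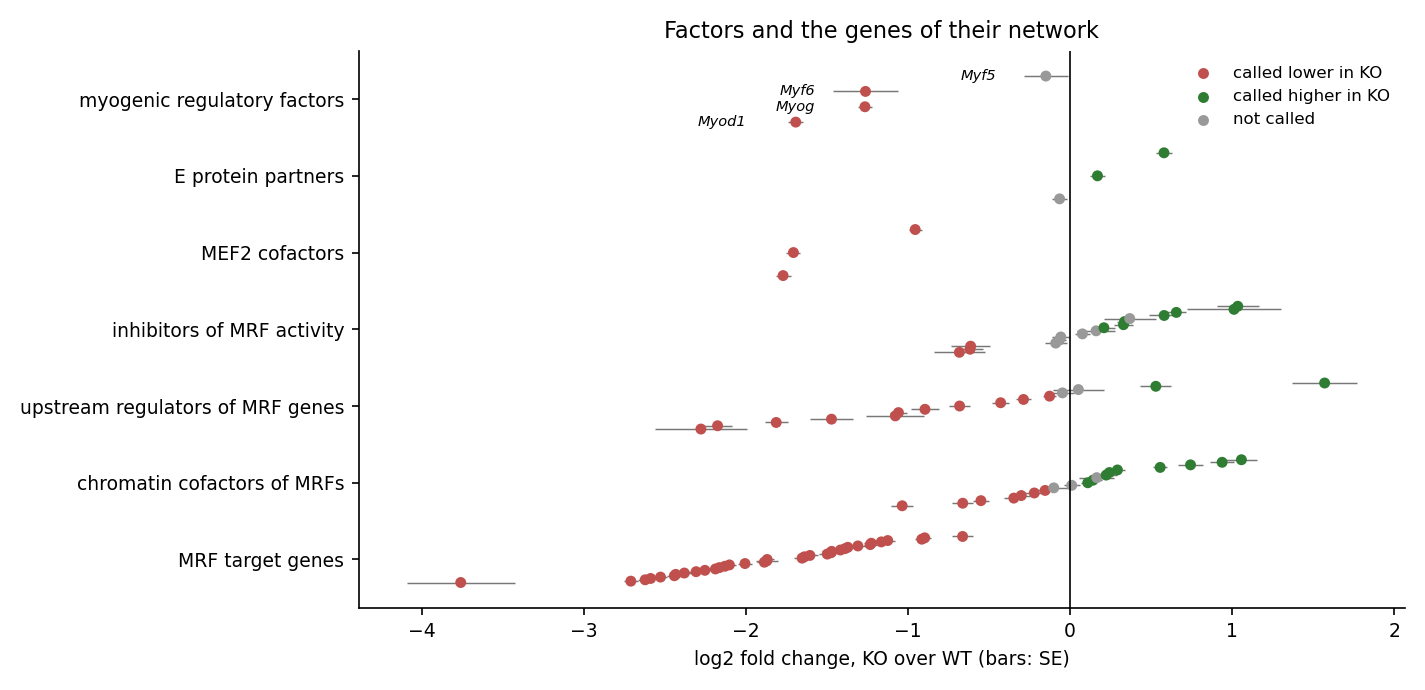
Log2 fold change of KO over WT (x axis, with SE) for the 4 factors and the tested genes of 6 lists of their network (rows), 1 point per gene, ordered by value within a row. All 35 targets and the 3 MEF2 genes lie left of 0, the E proteins lie around or right of it, the inhibitors lie on both sides, and Myod1 lies left of the other factors.

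The promoters of Myog, which fell, and of Myf5, which was not called, are shown. Those of Myod1 and Myf6 were not analysed here, so that no relation between motifs and changes can be read from them. They run from 250 bases before to 50 after the annotated start, from RefSeq on GRCm38.p6, at chr1:134289754-134290053 (+) for Myog and chr10:107486085-107486384 (-) for Myf5. Capitals mark matches on either strand to the E-box CANNTG, to the MEF3 motif TCAGGTTTC, and to TATAAA.
Myog: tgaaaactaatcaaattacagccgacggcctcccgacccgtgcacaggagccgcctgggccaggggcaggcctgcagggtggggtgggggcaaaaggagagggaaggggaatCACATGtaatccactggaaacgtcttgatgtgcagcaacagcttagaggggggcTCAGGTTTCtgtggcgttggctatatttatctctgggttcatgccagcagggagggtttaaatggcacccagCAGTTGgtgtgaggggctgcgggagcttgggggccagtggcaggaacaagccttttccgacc
Myf5: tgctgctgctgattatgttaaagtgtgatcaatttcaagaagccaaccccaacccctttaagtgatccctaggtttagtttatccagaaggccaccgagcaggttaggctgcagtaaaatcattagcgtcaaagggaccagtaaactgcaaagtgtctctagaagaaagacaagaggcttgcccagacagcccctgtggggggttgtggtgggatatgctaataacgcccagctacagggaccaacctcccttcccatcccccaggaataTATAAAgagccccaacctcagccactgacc

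The Myog window holds 2 E-boxes, with first bases at -138 and -12 from the start, and a MEF3 motif at -84. The Myf5 window holds no E-box and no MEF3 motif, and has TATAAA at 21. An E-box is common: 72.3% of 32851 promoter windows hold CANNTG, 13.6% hold TATAAA and 0.429% hold the MEF3 motif. These matches describe letters in a window and are not evidence of binding.

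The E-box form CAGCTG, which the factors with their E protein partners bind well, was frequent before the target genes. Of 29 targets with a listed promoter, 18 had CAGCTG in at least 1 listed window (62.1%), against 18.3% of all 27025 genes with a promoter, and 26 had any E-box, against 75% of genes. The form CACCTG, read on both strands and so also as CAGGTG, was in 8 of the 29 and in 22.6% of all genes. Any such match to CAGCTG or CACCTG is also a match to CANNTG. The listed genes were picked as MRF targets, and E-boxes may have been part of what made them known as such. The higher share of CAGCTG is therefore no independent result. The promoter of Chrna1, chr2:73580289-73580588 (-), is shown as that of the target with the smallest p and has CAGCTG at -92 and -44 and CAGGTG at -73.
Chrna1: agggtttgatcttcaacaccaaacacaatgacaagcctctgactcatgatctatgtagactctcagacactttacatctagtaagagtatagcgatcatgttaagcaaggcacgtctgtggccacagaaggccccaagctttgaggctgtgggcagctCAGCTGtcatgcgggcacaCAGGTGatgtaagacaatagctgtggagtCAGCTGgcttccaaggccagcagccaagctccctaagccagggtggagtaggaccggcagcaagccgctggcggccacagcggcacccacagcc

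Several genes beside Myod1 and Myog were lower in KO as well. Within 100 kb of Myod1 lie 4 tested genes, of which 3 fell, beside 33% of all tested genes called lower. Whether a locus changed as a unit was not tested. Kcnc1, a voltage-gated potassium channel gene 17397 bases downstream, had 7.45 ± 0.26 CPM in KO and 36.8 ± 2.53 CPM in WT (SD, n = 3 each), a log2 change of -2.31. Otog, which encodes the inner ear protein otogelin, fell by 1.89, and the noncoding RNA gene 1700025L06Rik fell by 0.64. Sergef was not called (0.06, edgeR adjusted p 0.684).

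Within 100 kb of Myog lie 5 tested genes, of which 4 fell, beside 33% of all tested genes called lower. Ppfia4, a liprin gene 4234 bases away, had 38 ± 0.39 CPM in KO and 99.7 ± 0.32 CPM in WT (SD, n = 3 each), a log2 change of -1.39. The adenosine receptor gene Adora1 fell by 1.84, the muscle protein gene Mybph, also in the target list, fell by 2.16, and Chil1 fell by 0.93. Mybph and Adora1 overlap on opposite strands, and since use of strand in the counting is not stated, their reads in the shared stretch cannot be told apart. Tmem183a was not called (0.07, edgeR adjusted p 0.245). At the locus of Myf5 and Myf6 the only other tested gene was Lin7a, at 0.493 ± 0.12 CPM in KO and 0.443 ± 0.14 CPM in WT, which was not called.

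**Figure D5:**
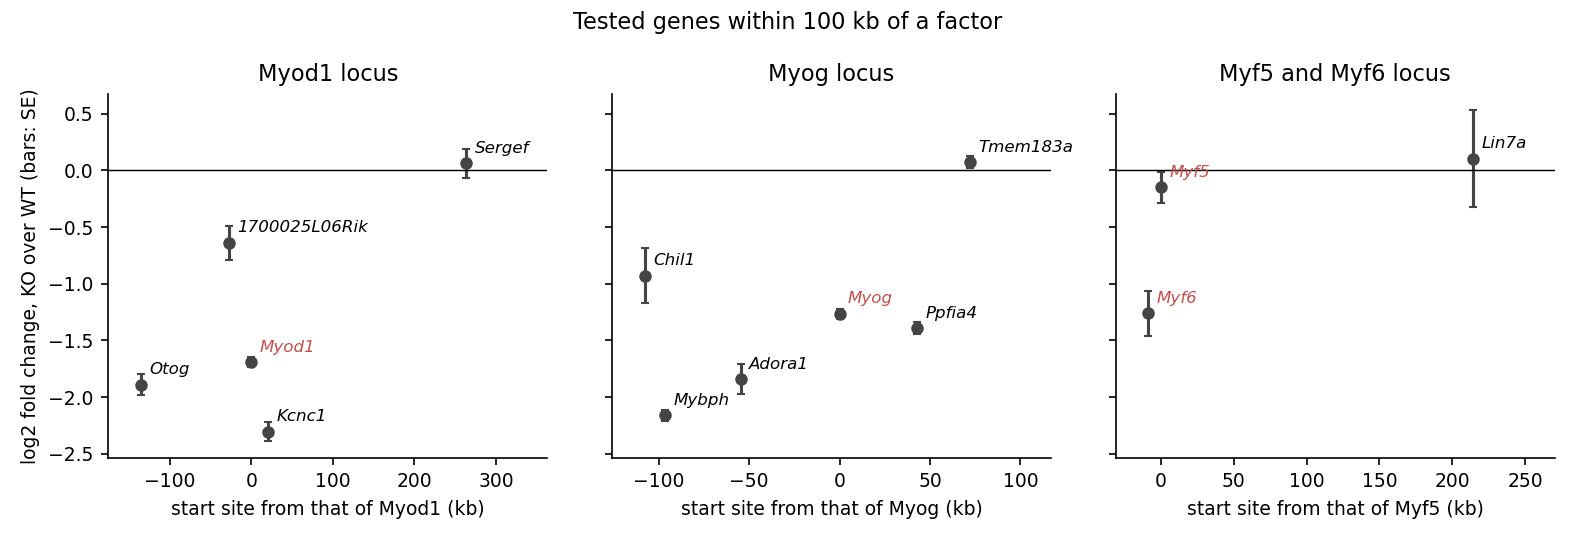
Log2 fold change of KO over WT (y axis, with SE) of each factor (red names) and of the tested genes within 100 kb, against the distance of their start sites from that of the factor in kilobases (x axis, positive downstream). Kcnc1 and Otog beside Myod1 and Ppfia4, Adora1 and Mybph beside Myog lie below -1, as Myod1 and Myog do. Sergef and Tmem183a lie near 0.

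The genes most like each factor across the 6 libraries were found by the Euclidean distance between log2 CPM values centred on their own mean, over 12678 protein-coding genes. This distance follows the fold change first, and nothing about shared function follows from it. For Myod1 the nearest were Nrap, an anchoring protein of muscle (distance 0.08), the chemokine Cxcl10 (0.08) and the FGF receptor-like gene Fgfrl1 (0.09), and 113 genes lay within 0.25. For Myog they were the Z-disc protein gene Pdlim3, the macrophage growth factor gene Csf1 and Tspan12 (0.08, 0.09 and 0.09), with 134 genes within 0.25. Myf5 was nearest to Lrriq3 (0.08), 3300002I08Rik (0.18) and Pdcd7 (0.18). The profile of Myf6, with its high KO replicate 1, had no gene within 0.25, and Slc45a3 (0.37), Slc2a12 (0.38) and Tex16 (0.39) came closest.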

How the data were processed

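Counts of reads per gene, not normalized, were deposited by the authors as a matrix of the whole series, used here, and as a table for each library. The tools were featureCounts 2.0.1 and HISAT2 2.2.1 with the mm10 genome, per the submitters' processing notes; the sources used here do not give the annotation, options or use of strand. Totals were 17919826 to 23646805 counts in KO and 20193337 to 28430678 in WT libraries. Symbols, lengths and 1-based mm10 coordinates come from GENCODE M21, which holds 21632 of the 21666 identifiers. Genes were filtered by filterByExpr (minimum count 10, total 15), scaled by TMM and tested by the quasi-likelihood F-test of edgeR 4.0.16 in R 4.3.3 with genotype as the only term, adjusted by Benjamini-Hochberg over 15518 genes and called under 0.05. RPKM divide scaled counts by exonic kilobases. Shares and ratios were compared by exact permutation with scipy 1.17.1. Alternatives were other scalings, no filter, DESeq2 1.42.0, limma 3.58.1 voom, a replicate block, each library left out, and the per-library tables. Within groups the mean chi-square per gene was 3.18 to 5.11, above sampling noise. The factors and lists were chosen with earlier results of these data known. Named genes were the factors, genes of the short lists (some are not reported here), the 8 targets with the smallest p, tested neighbours within 100 kb, and the 3 nearest genes of at least 1 CPM per factor.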

Additional observations from a re-analysis of the deposited data

How the results depend on the processing

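Myod1, Myog and Myf6 were called lower in KO under all 12 alternatives that gave a value, with log2 fold changes of -1.73 to -1.52 for Myod1, -1.30 to -1.09 for Myog and -1.67 to -1.09 for Myf6. Myf5 was called under none, with adjusted p of 0.0744 to 0.897 and, with library size as the only scaling, a value of 0.0215. The same scaling gave a family sum of -1.18 in place of -1.35 (log2 of KO over WT). Without division by length the share differences were -5.80 points for Myod1 and 0.80 for Myf5, in place of -5.12 and 0.60. Leaving out each library gave -0.15 to 0.15 points for the Myf6 share and -0.10 to 0.38 for the log2 ratio of Myog over Myf6. Over all tested genes, samples with the same number did not deviate together (correlations -0.0272 to -0.000758). Samples with different numbers gave -0.0109 to 0.0193. A pairing that is weak or limited to some genes was not tested. With the replicate block Myod1 was at -1.69, Myog at -1.26, Myf5 at -0.15 and Myf6 at -1.29, with no call changed.

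The per-library tables list Myod1, Myf5 and Myf6 at 0 in every library and Myog at 1 read in WT replicate 2 and 0 elsewhere, so none could be tested there. In them 5436 of 9871 tested genes were called, 2745 lower and 2691 higher in KO. In the matrix 10353 of 15518 tested genes were called, 5123 lower and 5230 higher. Among 9941 genes that average 200 counts or more in the matrix, the ratio of the 2 sources lay between 0.8 and 1.25 for 5.84%, or for 4.59% once each was divided by its library totals, and 21.2% were at 0 in all per-library tables. Of the lists, the targets had 4 lower and 1 higher of 11 tested there (median -0.14), the cell cycle markers 2 lower and 0 higher of 6 (-0.14), the satellite cell markers 0 lower and 2 higher of 4 (0.49), and the MEF2 genes 1 higher of 1 (1.1). The E protein genes had 1 lower and 0 higher of 3 tested there (median -0.04). The inhibitors had 0 lower and 3 higher of 4 (0.253), and the upstream genes 2 lower and 0 higher of 3 (-0.429). Among the chromatin cofactors 3 were lower and 1 higher of 11 (-0.099). The endothelial markers had 2 lower and 1 higher of 3 (-0.47). The macrophage markers had 0 called of 2 (0.38), and the Schwann and glial markers 3 higher of 3 (1.48). The cause of the disagreement was not tested. Depth limits Myf5 and Myf6, at 41 to 195 reads a library.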
